A study of Homo sapiens with 6 samples.

Results

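Epithelial-mesenchymal transition (EMT) is the change by which epithelial cells give up cell-cell junctions and take on a motile, matrix-producing state. The 10 genes followed here were chosen by name as its usual markers and regulators: CDH1, CDH2, VIM, SNAI1, SNAI2, TWIST1, TWIST2, ZEB1, ZEB2 and AXL. All 10 matched a single identifier each among the 57905 gene identifiers of the deposited table. They were compared in A549, a human lung adenocarcinoma line, between 3 libraries from cells transfected with miR-19a at 25 nM and 3 libraries from cells transfected with miR-NC, a negative control, also at 25 nM. Both groups were the same parental line, received a lipid reagent and were harvested at 24 h, so the control carries the transfection but not miR-19a. The labels name no untransfected sample and do not say whether the 3 libraries of a group came from separate cultures. Each p-value thus sets the difference between the groups against the spread between these libraries, which may be technical.

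EMT is directed by a small set of transcriptional repressors and activators that act on E-boxes in epithelial genes. SNAI1 and SNAI2 (the zinc finger factors SNAIL and SLUG), ZEB1 and ZEB2 repress CDH1, which encodes E-cadherin, the adhesion molecule of epithelial junctions. TWIST1 and TWIST2 are basic helix-loop-helix factors that favour CDH2, which encodes N-cadherin, and VIM encodes vimentin, the intermediate filament of mesenchymal cells. AXL is a receptor tyrosine kinase often raised in mesenchymal-like carcinoma cells. A549 is known as a line of mixed phenotype that keeps keratins and E-cadherin beside abundant vimentin.

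A microRNA lowers messenger RNAs that pair with its seed, bases 2 to 8 from the 5′ end, mainly through sites in the 3′ UTR. The sequences below are shown because ZEB2 and VIM were the only genes among the 10 with a miR-19a seed match of 7 bases or more in the annotated 3′ UTR, and because the miR-200 family is the textbook repressor of ZEB1 and ZEB2. The mature sequences are from RefSeq (GRCh38.p14), written 5′ to 3′ with the seed in capitals. The target windows are read from GENCODE release 29 transcripts on GRCh38, on the strand of the transcript, with the seed match in capitals.

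hsa-miR-19a-3p: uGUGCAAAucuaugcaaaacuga
hsa-miR-200b-3p: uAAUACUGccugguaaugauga
hsa-miR-200c-3p: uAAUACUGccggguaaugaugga
ZEB2, miR-19a 7mer-m8: tgggttaccTTTGCACcagcttcag
ZEB2, miR-19a 7mer-A1: tggacacgaTTGCACAttagggctg
VIM, miR-19a 7mer-A1: aaaTTGCACAcactcagtgcagcaa
ZEB1, miR-200b/c 8mer: tatcttatCAGTATTAtcactctta
ZEB2, miR-200b/c 8mer: caatgcatCAGTATTAtgattcctc

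The match in ZEB2 to bases 2 to 8 of miR-19a (7mer-m8) lies at chr2:144388683-144388689 on the minus strand, beginning at base 762 of a 3′ UTR of 5370 bases. The second match in ZEB2, to bases 2 to 7 followed by an A (7mer-A1), lies at chr2:144386358-144386364, beginning at base 3087. The match in VIM lies at chr10:17237275-17237281 on the plus strand and begins at base 4 of a 3′ UTR of 322 bases, close to the stop codon. CDH1 held only a 6-base match, and SNAI1, SNAI2, TWIST1, TWIST2, ZEB1, CDH2 and AXL held none. Sites of 7 bases or more thus occurred in 2 of the 10 genes, against 16.3% of the 19133 genes with an annotated 3′ UTR, and long UTRs hold more sites by their length. For the seed shared by miR-200b and miR-200c, ZEB1 carried 3 sites of the 8mer class and 3 of the 7mer-m8 class, and ZEB2 carried 4 and 1, with a further 7mer-A1. SNAI2 carried 1 site of the 7mer-m8 class and 1 of the 7mer-A1 class for it. An 8mer for this seed was present in 3.87% of all genes. ZEB1 and ZEB2 therefore shared the miR-200 sites and differed in the miR-19a site. These matches describe sequence and do not show that a site is used.

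In control cells the 10 genes spanned nearly 3 orders of magnitude in FPKM, a level scaled for gene length and library total. The gene lengths used are not stated, and the order of the genes depends on them. In counts not divided by length (CPM, defined below) ZEB2 at 10.4 stood near SNAI1 at 10.6 in miR-NC. VIM stood highest at 297 ± 9.19 FPKM (mean ± SD, n = 3), followed by AXL at 37.5 ± 1.79. CDH1 at 6.38 ± 0.303, SNAI1 at 6.26 ± 0.843 and TWIST2 at 5.28 ± 0.870 followed, and their neighbouring ranges overlapped. CDH2 at 3.75 ± 0.449, ZEB1 at 2.61 ± 0.154 and TWIST1 at 1.59 ± 0.186 were each separate from the next. ZEB2 at 0.573 ± 0.0493 and SNAI2 at 0.393 ± 0.164 were lowest, with overlapping ranges. Among the regulators, SNAI1 and TWIST2 were thus the most abundant messenger RNAs per length, and SNAI2 was barely present. In miR-19a cells SNAI1, at 11.7 ± 0.433 FPKM, stood clear of CDH1 at 5.62 ± 0.414, whereas CDH1 and CDH2 (5.34 ± 0.176) overlapped. CDH2 and TWIST2 traded places, with separate ranges in both groups: TWIST2 was the higher in miR-NC, and in miR-19a it stood at 4.15 ± 0.514, under CDH2.

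**Figure D1:**
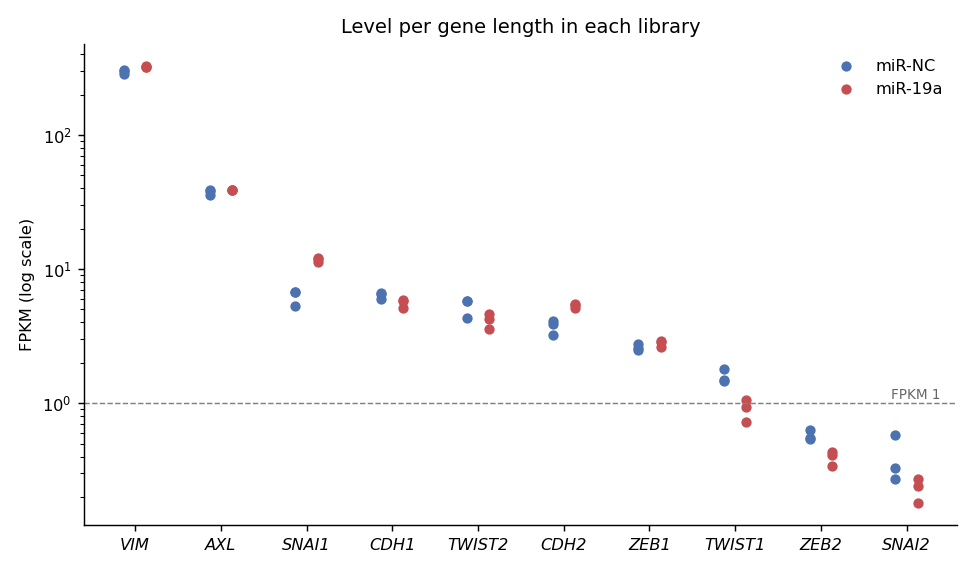
FPKM of the 10 genes in each library on a log axis, ordered by the mean over the 6 libraries, with miR-NC in blue and miR-19a in red. VIM lies between 287 and 328 in every library, ZEB2 and SNAI2 lie under the dashed line at 1 FPKM in every library, and SNAI1 and CDH2 show red points wholly above blue.

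Changes between the groups were tested on counts with edgeR's quasi-likelihood test (two-sided, Benjamini-Hochberg adjustment over all tested genes), among the 12452 genes with a mean of at least 1 FPKM. Normalised counts (CPM) are counts divided by the library total after scaling by TMM factors, and fold changes are log2 values of miR-19a over miR-NC. Of the 10 genes, 8 passed the filter and ZEB2 and SNAI2 did not. CDH2, SNAI1 and VIM rose and CDH1 and TWIST1 fell at an adjusted p of 0.05, which is 5 of 8 genes. In the same test 48.4% of all genes passed, 24.9% as higher and 23.5% as lower, so the number called says little about these genes, and their sizes and directions are given instead. The median change over all tested genes was 0.00 and the median size of a change was 0.18.

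**Figure D2:**
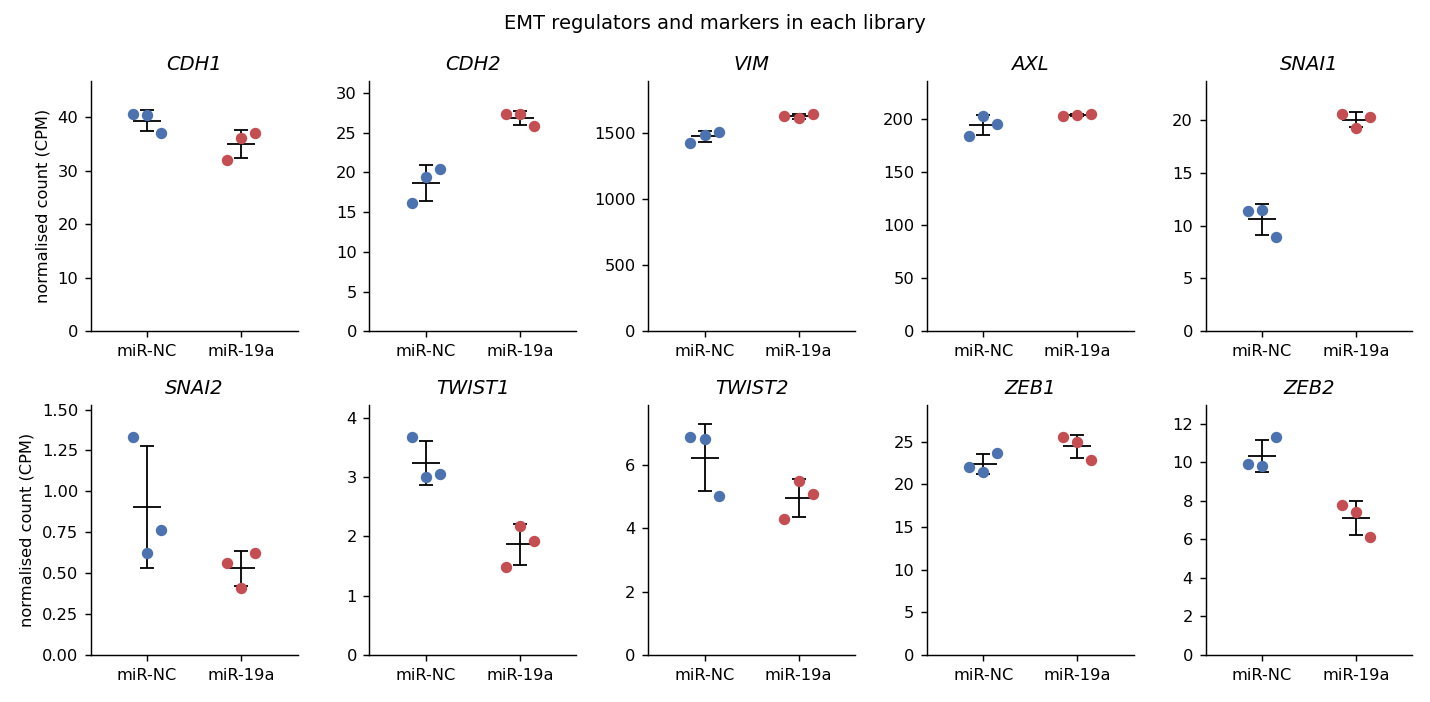
TMM-scaled normalised counts (CPM) of each gene, 1 point per library, with miR-NC in blue, miR-19a in red, and the mean and SD in black (3 libraries per group, each axis starting at 0). SNAI1 and CDH2 sit higher and TWIST1 and ZEB2 lower in all 3 miR-19a libraries, while TWIST2 and ZEB1 overlap between groups.

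The cadherins moved in opposite directions. CDH2 (ENSG00000170558, chromosome 18, 27950966 to 28177446) read 16.1, 19.4 and 20.4 CPM in the miR-NC libraries and 27.4, 27.3 and 25.8 CPM in the miR-19a libraries. All 3 miR-19a libraries lay above all 3 controls, and the means rose 1.44-fold (log2 fold change 0.53, SE 0.081, edgeR adjusted p = 9.2e-08). CDH1 (ENSG00000039068, chromosome 16, 68737225 to 68835548) read 40.7, 40.4 and 37.1 CPM in miR-NC and 32.1, 36.1 and 37.0 CPM in miR-19a. The groups only just failed to overlap, since the highest miR-19a library and the lowest control nearly coincided. CDH1 fell by 0.17 on the log2 scale (SE 0.065, edgeR adjusted p = 0.0294). The call was lost when miR-19a replicate 1 was left out (-0.11, adjusted p = 0.242) and when replicate 1 or 2 of miR-NC was (both -0.15, adjusted p = 0.112 and 0.0726). It was also lost with DESeq2 (adjusted p = 0.0800), with limma on log2(FPKM + 1) and log2(FPKM + 0.1) (0.0680 and 0.0670) and with no expression filter (0.0729). The direction was the same in all 15 alternatives, which lay between -0.21 and -0.11.

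The ratio of CDH2 to CDH1 FPKM within a library needs no scaling between libraries. It was 0.493, 0.596 and 0.683 in miR-NC replicates 1 to 3 and 1.06, 0.941 and 0.867 in miR-19a replicates 1 to 3. N-cadherin messenger RNA per length thus went from 0.591 ± 0.0951 of the E-cadherin level to 0.955 ± 0.0965 (mean ± SD, n = 3). Every miR-19a library exceeded every control. The level of the ratio depends on the gene lengths used, which are not stated. In normalised counts CDH2 was at 26.8 and CDH1 at 35.1 CPM in miR-19a. In these bulk libraries a change in the number of cells that express a gene and a change in its RNA per cell cannot be told apart.

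**Figure D3:**
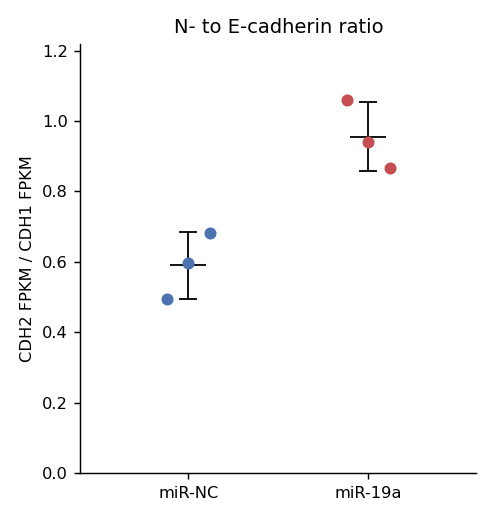
Ratio of CDH2 to CDH1 FPKM in each library, with the mean and SD in black (3 libraries per group). The miR-NC libraries lie between 0.493 and 0.683 and the miR-19a libraries between 0.867 and 1.06.

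VIM (ENSG00000026025, chromosome 10, 17228259 to 17237593) read 1430, 1489 and 1514 CPM in miR-NC and 1629, 1614 and 1650 CPM in miR-19a. The groups were separate and the rise was small, 1.10-fold (log2 fold change 0.14, SE 0.035, edgeR adjusted p = 5.5e-04). VIM thus carried a 7mer-A1 match and rose. The antisense gene VIM-AS1, which shares 641 exonic bases with VIM, had 38 to 70 counts per library against 23743 to 29214 for VIM. The sources do not state whether counting used strand, so reads of a gene and its antisense partner cannot be told apart.

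AXL (ENSG00000167601, chromosome 19, 41219203 to 41261766), the receptor for GAS6, was expressed at 184, 203 and 195 CPM in miR-NC and 203, 204 and 205 CPM in miR-19a. The control libraries varied more than the miR-19a libraries, and in FPKM the groups overlapped. The change did not pass, at 0.07 on the log2 scale (95% interval -0.01 to 0.15, edgeR adjusted p = 0.133). Without miR-NC replicate 2 it passed at 0.10 (adjusted p = 0.0257), and without miR-NC replicate 1 it was 0.03 (adjusted p = 0.625).

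SNAI1 rose most of the 10 genes. SNAI1 (ENSG00000124216, chromosome 20, 49982999 to 49988886) had 189, 184 and 140 counts in miR-NC and 332, 326 and 360 in miR-19a, which is 11.4, 11.5 and 8.90 CPM against 20.6, 19.2 and 20.3 CPM. The lowest miR-19a library was well above the highest control, and the means differed 1.89-fold (log2 fold change 0.92, SE 0.097, edgeR adjusted p = 1.3e-12). Leaving out each library in turn gave values from 0.81 to 0.98. Its relative SNAI2 (ENSG00000019549, chromosome 8, 48917604 to 48921740) had only 22, 10 and 12 counts in miR-NC and 9, 7 and 11 in miR-19a, at a mean of 0.312 FPKM over all libraries, under the filter. Fitted without the filter SNAI2 did not pass (log2 fold change -0.76, 95% interval -1.58 to 0.06, edgeR adjusted p = 0.233), and without miR-NC replicate 1 the value was -0.37 (adjusted p = 0.695). At this depth the SNAI2 estimate was too imprecise to call, and its interval reached from a large fall to no change. The SNAIL family in these cells was represented almost wholly by SNAI1.

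Both TWIST genes had lower means in miR-19a cells. TWIST1 (ENSG00000122691, chromosome 7, 19020991 to 19117672) had 61, 48 and 48 counts in miR-NC and 24, 37 and 34 in miR-19a, or means of 3.24 ± 0.376 against 1.86 ± 0.347 CPM (SD, n = 3). The groups were separate, and TWIST1 fell by 0.79 on the log2 scale (SE 0.23, edgeR adjusted p = 0.00241), a level 1.74-fold lower. TWIST1 passed the filter through its level in miR-NC, since its miR-19a mean was 0.903 FPKM, and fitted without the filter it had the same change (-0.79, adjusted p = 0.00248). TWIST2 (ENSG00000233608, chromosome 2, 238848032 to 238910543) read 6.87, 6.81 and 5.02 CPM in miR-NC and 4.29, 5.48 and 5.08 CPM in miR-19a. The lowest control lay among the miR-19a libraries, and the change of -0.33 (95% interval -0.64 to -0.02 before adjustment for multiple tests) did not pass at an edgeR adjusted p of 0.0738. Without miR-NC replicate 3, the low control, it passed at -0.46 (adjusted p = 0.0147).

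Of the ZEB pair only ZEB2 passed a test. ZEB1 (ENSG00000148516, chromosome 10, 31318495 to 31529814), with no miR-19a match, had 366, 342 and 373 counts in miR-NC and 410, 423 and 406 in miR-19a, or means of 22.4 ± 1.21 against 24.4 ± 1.34 CPM (SD, n = 3). In CPM the groups overlapped, and the change of 0.13 (95% interval -0.03 to 0.28, edgeR adjusted p = 0.175) did not pass. ZEB1-AS1, an antisense gene that shares 366 exonic bases with ZEB1, had 46 to 69 counts per library against 342 to 423 for ZEB1.

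ZEB2 (ENSG00000169554, chromosome 2, 144364364 to 144524583), with the 2 miR-19a matches printed above, had 165, 157 and 178 counts in miR-NC and 125, 126 and 108 in miR-19a. These counts correspond to a mean of only 0.483 FPKM, a value that depends on the gene length used, which is not stated. In CPM ZEB2 stood at 9.94, 9.81 and 11.3 in miR-NC and at 7.77, 7.42 and 6.10 in miR-19a, with no overlap. Fitted without the filter ZEB2 fell by 0.54 (SE 0.12, 95% interval -0.78 to -0.30, edgeR adjusted p = 9.0e-05), where 10.0% of the 28934 genes fitted were called lower. That share is low because these 28934 include every gene with any count. With edgeR's own filter on counts, which kept ZEB2 (-0.54, edgeR adjusted p = 1.8e-04), 3182 of 15159 genes were called lower. ZEB2 passed in each alternative run without the filter, with a range of -0.61 to -0.44, DESeq2 included (adjusted p = 0.00522). The difference between the changes of ZEB1 and ZEB2 was not itself tested.

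**Figure D4:**
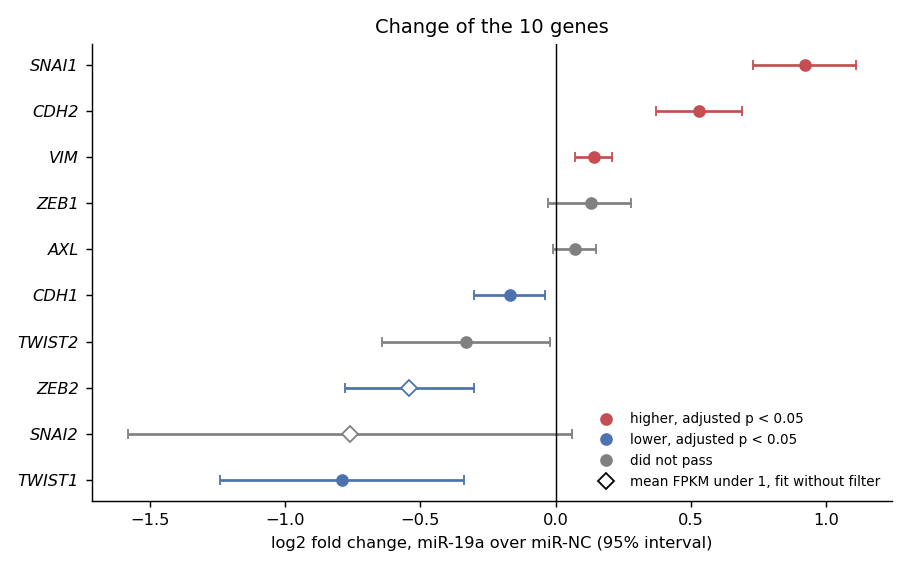
Log2 fold change of each gene with its 95% interval, miR-19a over miR-NC, where red is higher and blue lower at an adjusted p of 0.05 and grey did not pass. SNAI1 at 0.92 and CDH2 at 0.53 lie farthest to the right, TWIST1 at -0.79 lies farthest left of the genes that passed, and open diamonds mark ZEB2 and SNAI2, fitted without the expression filter.

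Normalised counts of the 2 groups did not overlap for CDH1, CDH2, VIM, SNAI1, TWIST1 and AXL among the 8 tested genes, where 54.0% of all tested genes showed the same separation. The factors best known for repressing CDH1 thus moved apart, with SNAI1 higher, ZEB2 lower and ZEB1 and SNAI2 without a call.

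Other genes of the EMT programme were taken from 11 lists grouped by role, of 157 entries in all. Of the 114 that were tested 62 rose and 22 fell, which is 54.4% and 19.3%, beside 24.9% and 23.5% of all tested genes. The median log2 fold change was 0.19 beside 0.00 over all tested genes, and these shares are the background for each list that follows. A miR-19a match of 7 bases or more was present in 18 of the 114, of which 9 rose, 5 fell and 4 did not pass. Of the 96 without such a match in the transcript used 53 rose and 17 fell. More genes rose than fell both with and without such a match, and a difference between these sets was not tested. The lists were chosen with earlier results of these data known, so these counts are a description.

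The partners of the cadherin tail were mostly higher. Of 8 tested catenins and associated proteins 7 rose and 1 fell (median 0.24). CTNNB1, beta-catenin, which binds the tail of both cadherins, rose by 0.39 (SE 0.040, edgeR adjusted p = 9.3e-13), and NECTIN2, a nectin of adherens junctions, by 0.36 (SE 0.042). CTNND1, p120-catenin, which holds cadherins at the membrane, fell by 0.25 (SE 0.038). CTNND1 thus had the direction of CDH1, and CTNNB1 that of CDH2 and of most of the list. A link between catenin and cadherin changes was not tested.

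Epithelial genes did not fall as a group. Of 13 tested genes of epithelial adhesion and tight junctions 7 rose and 3 fell (median 0.25). DSG2, a desmosomal cadherin, rose from 35.7 ± 0.999 to 53.3 ± 1.90 FPKM (log2 fold change 0.59, SE 0.039), and the tight junction protein CLDN1 rose by 0.90 (SE 0.038). CLDN3, another claudin, fell from 2.96 ± 0.210 to 1.51 ± 0.184 FPKM (-0.96, SE 0.21), and the desmosomal plaque protein PKP2 had a change of -0.53 (SE 0.15), a call that ended in limma on log2(FPKM + 0.1) (adjusted p = 0.0599). PKP2 passed the filter through its miR-NC level, and fitted without the filter it was at -0.53 (adjusted p = 0.00135). EPCAM, an epithelial adhesion molecule, lay under the filter at 0.38 to 0.93 FPKM.

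Keratins split by gene. Of 7 tested keratins and epithelial surface genes 4 rose and 2 fell (median 0.28). KRT18, the type I partner of KRT8 in simple epithelia, rose from 1678 ± 47.6 to 2180 ± 37.4 CPM (0.38, SE 0.035), and KRT19 rose by 0.40 (SE 0.044). KRT7 fell by 0.28 (SE 0.036), and KRT80 by 0.33 (SE 0.046). VIM, at 324 FPKM in miR-19a cells, was below KRT18, at 668 FPKM, per length.

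Of 14 listed epithelial transcription and splicing regulators 6 were tested, of which 2 rose and 1 fell (median -0.02). The other 8 lay under the filter. Among these EHF was lower (1.13 ± 0.147 FPKM in miR-NC, 0.490 ± 0.113 in miR-19a), as was TP63 (0.333 and 0.173). GRHL1 (0.340 and 0.467) and ESRP2 (0.0200 and 0.0300) were higher. These 4 were chosen after their values were seen. ELF3, an epithelial ETS factor, rose by 0.62 (SE 0.045) and KLF5 by 0.35 (SE 0.050). FOXA2, a forkhead factor of foregut epithelium, fell by 0.16 (SE 0.062, edgeR adjusted p = 0.0314), a call that ended in 6 of its 15 alternatives: without miR-19a replicate 2 or 3, without miR-NC replicate 1 or 3, with DESeq2 and without a filter. The epithelial splicing factor ESRP1 and GRHL2, a guardian of epithelial identity that restrains ZEB1, were nearly absent, at no more than 0.04 and 0.01 FPKM in any library. MIR200CHG, the host gene of miR-200c and miR-141, was nearly absent, at no more than 0.17 FPKM in any library. Its mean was 0 in miR-NC and 0.0567 ± 0.0981 FPKM (0.0196 CPM) in miR-19a, too near 0 to compare the groups. Mature microRNAs are not measured in such poly(A)-selected libraries.

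Of 23 listed mesenchymal matrix and surface genes 14 were tested, and all 14 passed, 11 as higher and 3 as lower (median 0.47). The other 9 lay under the filter, among them the matrix metalloprotease MMP14 at 0.633 ± 0.0751 FPKM in miR-NC and 0.620 ± 0.0265 in miR-19a, which was chosen after its values were seen. Of the 11 higher genes, SPARC and COL1A1 passed the filter only through miR-19a, at 0.517 and 0.903 FPKM in miR-NC. Their place among the higher genes thus partly follows from the filter, and without it they changed by 1.55 and 1.53. COL5A1, a chain of the fibril-regulating collagen V, went from 11.7 ± 0.982 to 26.9 ± 0.415 FPKM (log2 fold change 1.22, SE 0.043), and the fibronectin receptor subunit ITGA5 rose by 1.06 (SE 0.042). Fibronectin itself, FN1, rose by 0.21 (SE 0.044, edgeR adjusted p = 3.2e-05). TGFBI, a secreted TGF-beta-induced matrix protein, fell by 0.30 (SE 0.035).

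The summed level of 10 lung fibroblast markers was 1.74 to 2.05 FPKM in miR-NC and 3.03 to 3.70 in miR-19a, mostly through COL1A1. COL1A1, also in the matrix list, was the only marker tested and passed the filter through its miR-19a level. It rose by 1.52 on the log2 scale, from 0.8 to 1.0 FPKM in the controls to 2.41 to 2.76, and by 1.53 in the fit without the filter. THY1, a surface marker of fibroblasts, lay under the filter and was lower, at 0.84 to 0.95 FPKM in miR-NC and 0.5 to 0.69 in miR-19a. DCN, POSTN and DPT were at 0 or 0.01 FPKM in every library, and 7 of the 10 markers lay under 0.1 FPKM in all 6. Markers of endothelial cells and those of leukocytes, each summed apart, came to no more than 0.0600 and 0.280 FPKM in any library. Those of the line itself, led by ALDH1A1, AKR1B10 and the keratins, summed to between 5415 and 5711 FPKM, whereas 5 of 6 alveolar type II markers lay under 0.1 FPKM.

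Of 10 tested mesenchymal cytoskeleton and calcium-binding genes 6 rose and 1 fell (median 0.15). NES, nestin, an intermediate filament that assembles with vimentin, rose from 0.733 ± 0.0907 to 2.03 ± 0.0889 FPKM (1.48, SE 0.14). NES passed the filter through its miR-19a level, and its change without the filter was 1.49 (SE 0.14). The membrane-actin linker MSN rose by 0.31 (SE 0.035). S100A4, known as fibroblast-specific protein, fell by 0.30 (SE 0.038).

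Of 13 other tested transcription factors linked to EMT 6 rose and 3 fell (median 0.19). HMGA2, an architectural chromatin factor known to induce SNAI1 and TWIST1, rose from 6.04 ± 0.465 to 12.7 ± 0.504 FPKM (1.09, SE 0.045, edgeR adjusted p = 2.0e-31). The list also holds ID factors, which block basic helix-loop-helix proteins such as TWIST1 and TCF3 and so are not drivers in the sense of its name. ID3 rose by 0.64 (SE 0.039), whereas ID2 fell by 0.40 (SE 0.046). TCF3, the E protein that pairs with TWIST factors, fell by 0.39 (SE 0.057).

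Of 16 corepressor genes linked to SNAIL and ZEB proteins, all tested, 8 fell and 2 rose (median -0.09), beside 23.5% lower and 24.9% higher among all tested genes. SUZ12, a core subunit of the Polycomb complex PRC2, fell from 13.3 ± 0.301 to 6.39 ± 0.190 FPKM (-1.04, SE 0.053), and the scaffold SIN3A fell by 0.39 (SE 0.050). HDAC1, a deacetylase of several such complexes, rose by 0.29 (SE 0.044), and LATS2, a Hippo kinase reported to stabilise SNAIL, rose by 0.78 (SE 0.061). Among 16 tested genes that control the stability of SNAIL and TWIST proteins 8 rose and 0 fell (median 0.12), and 8 of 16 called is near the 48.4% of all tested genes. CTDSP1, a phosphatase that opposes the marking of SNAIL for degradation, rose by 0.40 (SE 0.049), and the ubiquitin ligase subunit FBXW7 by 0.64 (SE 0.088).

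Around AXL, most other listed components of TAM receptor signalling rose, while AXL itself, the receptor MERTK and the ligand GAS6 did not pass. Of 11 tested receptors, ligands, sheddases and adaptors 9 rose and 0 fell (median 0.36). TYRO3, a second TAM receptor, rose from 2.20 ± 0.0361 to 3.90 ± 0.285 FPKM (0.84, SE 0.083, edgeR adjusted p = 1.0e-13), still far below AXL at 39.0 FPKM. MERTK, another TAM receptor, did not pass at 0.10 (SE 0.15, edgeR adjusted p = 0.596). ADAM17, a membrane sheddase, rose by 0.83 (SE 0.045). GAS6, the ligand of AXL, did not pass at 0.17 (SE 0.099, edgeR adjusted p = 0.166).

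**Figure D5:**
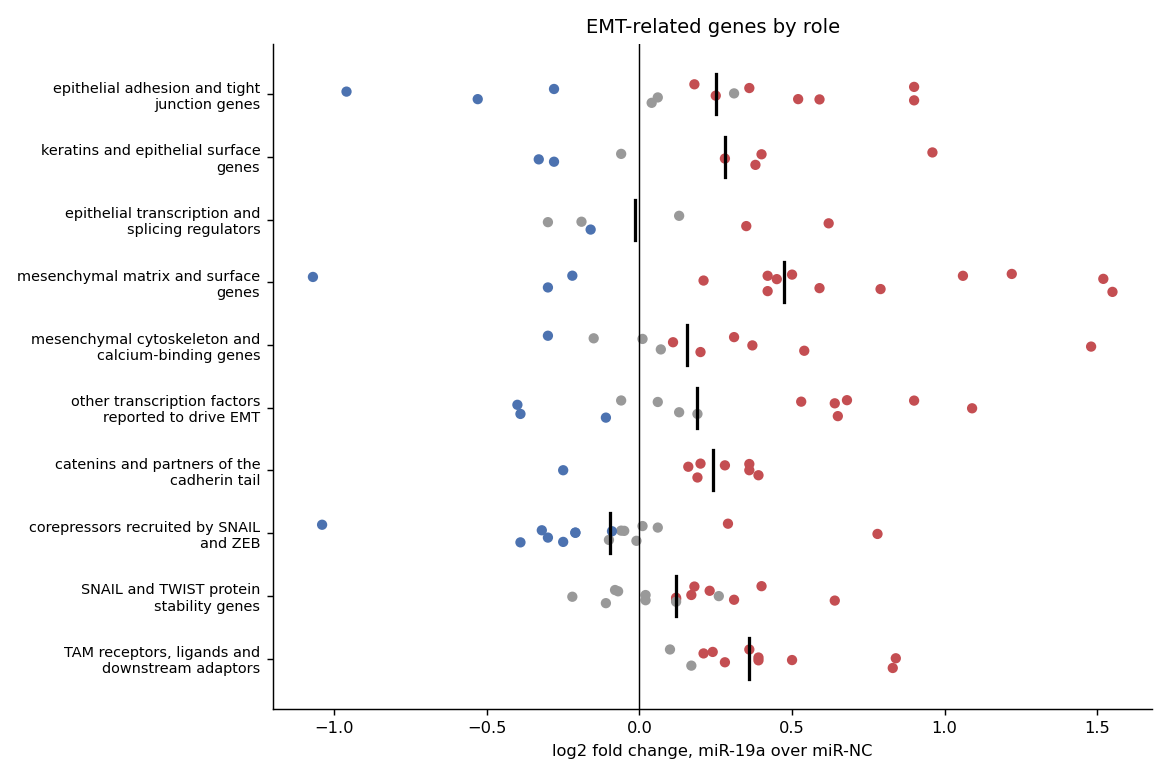
Log2 fold change (miR-19a over miR-NC) of each tested gene in 10 lists of EMT-related genes, where red is higher and blue lower at an adjusted p of 0.05, grey did not pass, and the black bar is the median of the list. The bar lies highest for mesenchymal matrix and surface genes at 0.47 and lowest for corepressors at -0.09, and most lists hold both red and blue points.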

How the data were processed

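Poly(A)-selected RNA of 6 A549 libraries was sequenced as paired reads of 150 bases, per the labels' protocols. The submitters' processing notes name bcl2fastq 2.17.1.14. Not given in the sources used here are the genome build, aligner, gene annotation, counter and strandedness. The deposited counts are whole numbers per gene with no normalization, and total 15699037 to 17957932 per library. FPKM columns are labelled as such per the file headers, and the authors gave them with 2 decimals. Every column was mapped to a sample by its title.

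Counts were fitted with edgeR 4.0.16 (quasi-likelihood, TMM, R 4.3.3) over 12452 genes with a mean of at least 1 FPKM. SE was taken as the size of the log2 change divided by the root of F, with 95% intervals. Alternatives used DESeq2 1.42.0 and limma 3.58.1. limma took log2(FPKM + 1) or log2(FPKM + 0.1). edgeR was also run with median-of-ratios factors, library totals, other filters, a replicate block and each library left out. The count test was tested on simulated data. Python 3.11.15, pandas 2.3.3 and numpy 2.4.6 were used for summaries. Replicate libraries were not duplicates of each other (chi-square per gene 1.60 to 4.22).

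3′ UTRs were taken from the GENCODE 29 transcript with the longest coding sequence. Some were short, such as 54 bases for CTDSP1 and 533 for HMGA2, and for the lists sites in other transcripts were not counted. Symbols matched 52338 of 57905 identifiers, and 2 list entries, CD24 and USP27X, matched none. The 10 genes and all lists were chosen with earlier results of these data known. Named genes are the 10, at most 2 rising and 2 falling genes per list with the smallest adjusted p, and EPCAM, GRHL2, ESRP1, FN1, CTNNB1 and GAS6. A further gene that this rule names is not reported here. MIR200CHG, SPARC, MERTK, EHF, TP63, GRHL1, ESRP2 and the cell type markers are named besides.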

Additional observations from a re-analysis of the deposited data

How the results depend on the processing

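CDH2, VIM, SNAI1 and TWIST1 kept their direction and their call in every alternative run for them, with ranges of 0.42 to 0.59, 0.12 to 0.16, 0.81 to 0.98 and -0.92 to -0.44. The low end for TWIST1 came from limma on log2(FPKM + 1), where the pseudocount shrinks changes of low genes, as it did for NES (0.81), FBXW7 (0.38) and PKP2 (-0.29). No value reversed in sign. The number of genes called among the 10 was 4 to 6 when each library was left out, and 3 with a minimum of 5 FPKM, which left only 4 of them tested. Without a filter it was again 5, with ZEB2 in place of CDH1. The other listed genes called numbered 66 to 90 and all genes called 4070 to 6620. For the 35 further genes that the naming rule gave, 512 of 519 alternative values kept the call, and the other 7 belonged to FOXA2 and PKP2. The fits of ZEB2 and SNAI2 by DESeq2, by library totals, with the replicate block and without each library were added after the data were seen. Scaling by library totals moved the median change from -0.004 to -0.020. Same-numbered libraries of the 2 groups shared no deviation (correlations -0.031 to 0.0085, with 1 of 6 libraries closest to its own number), so the numbers were not taken as pairs. With the replicate block 5986 genes were called against 6023, 85 of the listed genes against 84, and the same 5 of the 10 genes. SNAI2, at 7 to 22 counts per library, is limited by depth.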

Other observations

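CDH1 and CDH2 are 2 of 23 genes in the table whose symbol is CDH and a number, and 5 of these were tested. This set was looked at after the values of CDH1 and CDH2 were seen. CDH4, R-cadherin, a close relative of N-cadherin, rose from 4.02 ± 0.347 to 5.24 ± 0.0839 FPKM (mean ± SD, n = 3, log2 fold change 0.40, SE 0.069, edgeR adjusted p = 1.8e-06). CDH17, the liver-intestine cadherin, rose from 1.96 ± 0.163 to 3.02 ± 0.326 FPKM (0.64, SE 0.12), and CDH24, a type II cadherin, from 2.99 ± 0.224 to 4.27 ± 0.260 FPKM (0.53, SE 0.098). CDH1 was the only tested gene of the set that was lower in miR-19a cells, and its call was lost in 7 of 15 alternatives. Among all tested genes 24.9% were called higher and 23.5% lower.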
